A study of Homo sapiens with 6 samples.

Results

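The genes of the TGF-beta superfamily pathway were followed in RNA of the cultured human melanoma line A375. The set holds 53 genes chosen by name, 1 row each, out of the 57914 rows of the deposited tables: 14 ligand genes, 8 antagonists and modulators, 11 receptors, 8 SMADs, 4 ID genes, 4 latent binding proteins, and 4 repressors and ubiquitin ligases. Cells were stained with Aldefluor, a substrate that turns fluorescent when aldehyde dehydrogenases (ALDH) act on it, and sorted by flow cytometry. ALDH_High is the 5% of cells with the strongest fluorescence and ALDH_Low the 5% with the weakest, with 3 libraries each. Both groups are untreated A375 cells in the same medium (high-glucose DMEM with calf serum and glutamine), so they differ by the sorting gate alone as far as the labels say. All 6 libraries come from 1 cell line. The labels do not say whether equally labelled libraries came from separate cultures, so p-values measure the spread between these libraries, which may be technical.

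Ligands of this superfamily are secreted dimers that bring type I and type II receptor kinases together. TGF-betas and activins act mainly through SMAD2 and SMAD3, bone morphogenetic proteins (BMPs) mainly through SMAD1, SMAD5 and SMAD9, and both branches share SMAD4. Secreted antagonists, decoy receptors and inhibitory SMADs limit the pathway, and several of them are themselves transcribed in response to it. In melanoma the pathway is known for its links to differentiation state and invasion.

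Total counts per library lay between 26692868 and 37830603. Along the second principal component of log2 CPM, with 14.5% of the variance, ALDH_High library 1 stood apart at 49.1 from libraries 2 and 3 at -22.0 and -32.5. The 8 melanocyte lineage markers summed to 653 to 829 CPM in ALDH_High and 226 to 244 CPM in ALDH_Low, most of it SOX10 at 596 to 769 and 177 to 208 CPM. S100B was also higher in every ALDH_High library (29.9 to 35.1 against 0.605 to 3.14 CPM). MITF (12.2 to 14.3 against 19.1 to 32.6 CPM) and PAX3 (10.4 to 11.8 against 12.5 to 14.7 CPM) were lower in every ALDH_High library. The pigment genes MLANA and TYR did not exceed 3 counts in any library, and PMEL and DCT did not exceed 0.674 CPM. Summed white blood cell markers lay at 14.6 to 28.1 CPM in ALDH_High and 58.0 to 70.3 CPM in ALDH_Low, most of it CD68. CD14 was also lower in every ALDH_High library, while LYZ was higher in each (2.45 to 6.37 against 0.807 to 1.46 CPM). PTPRC reached at most 0.143 CPM, HBB was at 0 and CD3E and CD79A had at most 3 counts. Summed endothelial markers lay at 12.2 to 13.5 and 2.88 to 3.80 CPM, most of the former KDR, with PECAM1 at most 1.18 CPM. TEK went the other way, at 0.487 to 0.657 against 0.749 to 1.04 CPM. Fibroblast and keratinocyte sums overlapped between the groups, but some single genes of both lists did not. PDGFRB (6.37 to 6.96 against 10.7 to 13.5 CPM) and KRT5 (0.0749 to 0.175 against 1.08 to 2.85 CPM) were lower in every ALDH_High library. DCN, LUM and KRT14 were higher in each. The part of these genes in the results was not tested.

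Of the 53 genes, 47 passed the filter on low counts, and 19 of them passed an adjusted p of 0.05 (edgeR quasi-likelihood test, Benjamini-Hochberg over 17047 genes). Follistatin, BAMBI, BMP8B, BMP6, BMP7, TGFB3, TGFBR3, ACVR1, LTBP1 and ID4 were higher in ALDH_High, and noggin, ID3, ID1, SMAD7, SMAD2, FSTL1, FSTL3, TGFBR2 and LTBP2 were lower. That is 40.4% of the tested members, where 20.6% of all genes passed. Higher were 10 of the 47 tested members, beside 1838 of all 17047 genes tested (10.8%). Lower were 9 of the 47, beside 1675 of the 17047 (9.83%). The members were chosen with earlier results of these data known, so these shares are a description and no test of the set. The median log2 fold change of the tested members was -0.04, and that of all genes -0.01. BMP7, ID4 and NOG were tested only because of the group in which they are high. With at least 10 counts required in every library, 16 of 44 members and 2935 of all genes passed, against 19 and 3513 as reported. Leaving out ALDH_Low library 3 lowered the higher members to 5 and the total to 13. A fold change is ALDH_High over ALDH_Low. The 3 ALDH_High and 3 ALDH_Low libraries did not overlap for 25 of the 47 tested members, and for 6437 of all 17047 genes tested (37.8%). Each of the 19 was among these 25, but the 19 were selected by p on the same libraries. Without overlap the exact two-sided permutation p is 0.1, the smallest that 3 against 3 libraries allow. The libraries are bulk RNA, so a different level in each cell and a different share of cells with the transcript cannot be told apart.

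**Figure D1:**
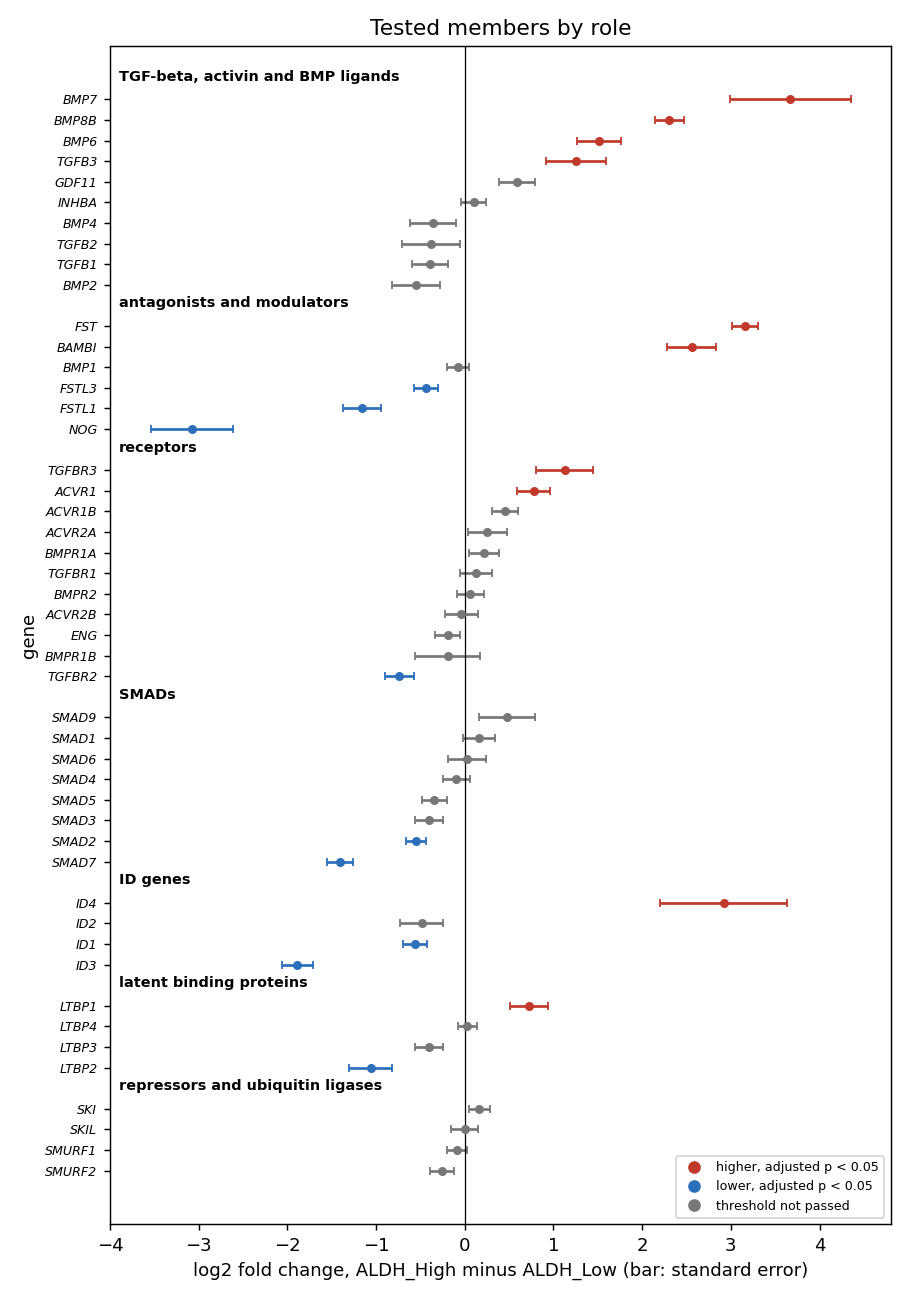
Log2 fold change (ALDH_High minus ALDH_Low, horizontal axis) with its standard error for the 47 tested members, one row per gene, grouped by role. Red points passed the threshold as higher (10 genes), blue points as lower (9 genes), and grey points did not pass (28 genes); FST, at 3.16, and NOG, at -3.07, lie far from 0 on opposite sides.

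The antagonists changed in both directions: 2 of 6 tested were higher and 3 lower (83.3%, against 20.6% of all genes). The 3 lower include NOG, which was tested only because of the group in which it is high. Follistatin (FST; chromosome 5, 53480626 to 53487134, GRCh38) is a secreted protein that binds activins and blocks their access to receptors. FST was at 791, 957 and 767 CPM (counts scaled to a common library size) in ALDH_High libraries 1, 2 and 3 and at 95.4, 80.0 and 106 CPM in ALDH_Low libraries 1, 2 and 3. Every ALDH_High library lay several times above every ALDH_Low library. The group values were 838 ± 103 and 93.7 ± 12.9 CPM (SD, n = 3), an 8.95-fold difference (log2 fold change 3.16, standard error 0.15, edgeR adjusted p 3.47e-06). Ranked by p, FST was number 5 of the 17047 genes tested.

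BAMBI (chromosome 10, 28677510 to 28682932) is a membrane pseudoreceptor that resembles type I receptors but lacks the kinase domain. Its values were 76.3, 39.4 and 52.5 CPM in ALDH_High and 10.7, 6.32 and 11.5 CPM in ALDH_Low. All ALDH_High values were above all ALDH_Low values, with library 1 the highest of its group. The fold difference of BAMBI was 5.89 (log2 fold change 2.56, standard error 0.28, edgeR adjusted p 0.000153).

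Noggin (NOG; chromosome 17, 56593699 to 56595611), a secreted protein that binds BMPs and keeps them from their receptors, went the other way at a low level. NOG was at 0.789, 0.318 and 0.176 CPM in ALDH_High, from 20, 11 and 6 counts, and at 4.20, 3.08 and 3.16 CPM in ALDH_Low, from 162, 92 and 88 counts. It was 8.42-fold lower in ALDH_High (log2 fold change -3.07, standard error 0.46, edgeR adjusted p 0.00111), and without ALDH_High library 1, the highest of its group, the log2 fold change was -3.78. With at least 10 counts required in every library, NOG was not tested. Together with FST, the antagonists thus included transcripts that were far higher and, for NOG at a low level, far lower in the same libraries.

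Among the follistatin-related genes, FSTL1 and FSTL3 were lower where FST was higher. FSTL1, a secreted glycoprotein that is only distantly related to follistatin, was at 21.9, 32.0 and 29.3 CPM in ALDH_High and 50.5, 83.7 and 51.8 CPM in ALDH_Low (log2 fold change -1.16, standard error 0.21, edgeR adjusted p 0.00372). In some limma fits of log2 TPM, FSTL1 missed the threshold, with limma adjusted p up to 0.105. FSTL3, which binds activins as FST does, was at 75.6, 99.3 and 84.0 CPM against 102, 126 and 123 CPM, with a gap of only a few CPM between the groups. The log2 fold change of FSTL3 was -0.44 (SE 0.14, edgeR adjusted p 0.0435), and its adjusted p reached 0.152 when 1 library was left out, missing the threshold in 4 of 6 such fits. BMP1, a metalloprotease that cleaves chordin and procollagens, was at 29.1 to 36.8 CPM in ALDH_High and 33.7 to 35.6 CPM in ALDH_Low and did not pass (edgeR adjusted p 0.716). Chordin (CHRD) and gremlin (GREM1), both BMP antagonists, had at most 15 counts in any library and were not tested.

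TPM values are corrected for transcript length and let genes be set side by side. On that scale FST averaged 770 TPM in ALDH_High and 82.7 TPM in ALDH_Low. INHBA, which encodes the activin A subunit that follistatin binds, averaged 18.4 and 16.6 TPM, and FSTL3 averaged 54.6 and 71.3 TPM. The ratio of FST to INHBA TPM was 42.6, 41.9 and 41.3 in ALDH_High libraries 1, 2 and 3, and 4.54, 4.19 and 6.61 in ALDH_Low. FST exceeded INHBA in each of the 6 libraries, and the ratios of the groups did not overlap (exact two-sided permutation p = 0.1). FST over FSTL3 was between 13.3 and 15.2 in ALDH_High and between 0.921 and 1.36 in ALDH_Low.

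**Figure D2:**
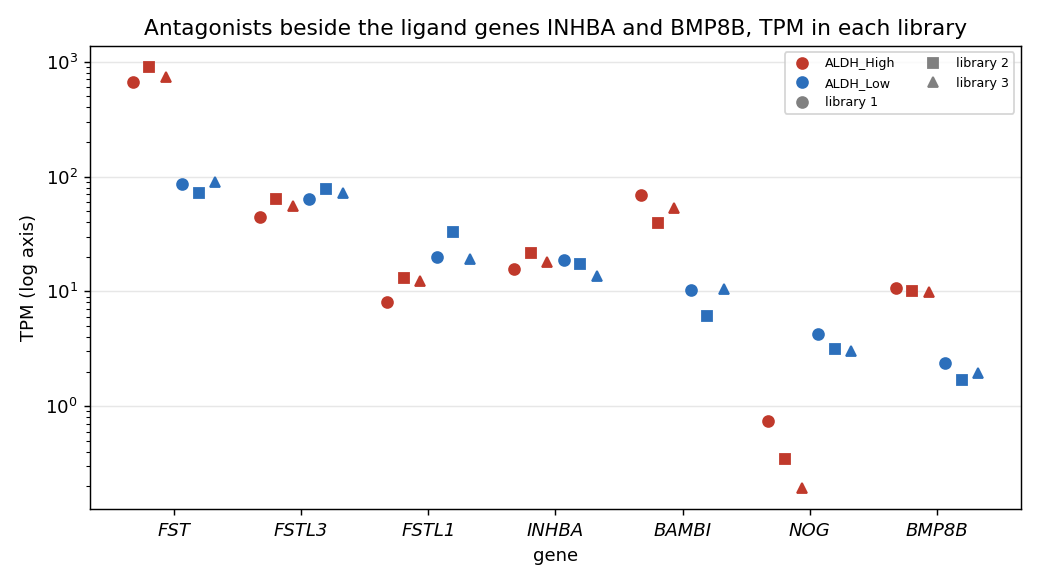
TPM on a log axis for 5 antagonist genes and the ligand genes INHBA and BMP8B, one point per library (red ALDH_High, blue ALDH_Low; shapes give the library number). FST, BAMBI and BMP8B are higher in all 3 ALDH_High libraries, NOG, FSTL1 and FSTL3 are lower, and the INHBA points of the groups overlap.

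The promoters of FST and BAMBI are shown because these antagonists rose together. Both are the 250 bases before the RefSeq start, 5′ to 3′ on the plus strand of GRCh38.p14, at chr5:53480379-53480628 and chr10:28677271-28677520. Capitals mark GGCGCC, a GC-rich motif described for BMP-responsive SMADs, searched on both strands; the motif reads the same on each.
FST: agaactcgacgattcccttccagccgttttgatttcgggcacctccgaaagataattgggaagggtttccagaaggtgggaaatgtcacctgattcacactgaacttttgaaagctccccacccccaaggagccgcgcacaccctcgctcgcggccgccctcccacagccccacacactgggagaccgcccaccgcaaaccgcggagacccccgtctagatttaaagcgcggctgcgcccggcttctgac
BAMBI: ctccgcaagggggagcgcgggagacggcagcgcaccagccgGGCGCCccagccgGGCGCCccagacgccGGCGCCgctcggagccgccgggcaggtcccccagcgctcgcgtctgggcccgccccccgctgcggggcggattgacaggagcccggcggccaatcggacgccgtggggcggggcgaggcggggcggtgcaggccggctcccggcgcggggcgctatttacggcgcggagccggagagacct
The BAMBI stretch holds GGCGCC at bases -209 to -204, -196 to -191 and -181 to -176 from the start, and the FST stretch holds none. RefSeq promoter windows (250 bases before to 50 after a start) were found by symbol for 46 of the 53 members. GGCGCC occurred in at least 1 window of 19 of these 46 genes (41.3%), against 22.0% of all 27305 genes with a window. Counted by window, the shares were 26.9% of 78 and 19.2% of 35116. Such matches describe letters and show no binding.

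Of the 10 ligand genes tested, 4 (40%) were higher in ALDH_High, against 10.8% of all genes, all of them at low or moderate levels. None was lower, against 9.83% of all genes. BMP7, among the 4 higher, was tested only because of the group in which it is high, so the 40% depends in part on the filter. BMP8B (chromosome 1, 39757182 to 39788865), a BMP best known from germ cells and brown fat, was at 37.8, 32.1 and 30.7 CPM in ALDH_High and 7.88, 5.55 and 6.83 CPM in ALDH_Low. These groups lay well apart (4.95-fold; log2 fold change 2.31, standard error 0.17, edgeR adjusted p 1.54e-05). BMP8B has a near-identical neighbour, BMP8A, whose reads the counting may have split with it; BMP8A was also higher, at 4.10, 1.65 and 2.08 against 0.804, 1.04 and 0.359 CPM (log2 fold change 1.81, standard error 0.46, edgeR adjusted p 0.0193). BMP8B also overlaps PPIE, a gene on the opposite strand, and use of strand in the counting is not given in the sources used here.

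BMP6, a BMP known for its part in iron homeostasis, was at 4.73, 4.25 and 3.72 CPM in ALDH_High and 1.35, 1.74 and 1.37 CPM in ALDH_Low (2.85-fold; log2 fold change 1.51, standard error 0.25, edgeR adjusted p 0.00187). BMP6 overlaps TXNDC5 on the opposite strand. BMP7, a BMP of kidney and bone development, had 60, 55 and 51 counts in ALDH_High and 12, 2 and 0 in ALDH_Low. It passed as higher (log2 fold change 3.67, standard error 0.68, edgeR adjusted p 0.00382), and without ALDH_Low library 1, which held most of the ALDH_Low counts, the log2 fold change was 5.56. TGFB3 was at 3.12, 3.27 and 3.93 CPM against 1.97, 0.770 and 1.55 CPM (log2 fold change 1.26, standard error 0.34, edgeR adjusted p 0.0253). Its adjusted p reached 0.0767 when 1 library was left out and missed the threshold in 4 of 6 such fits; TGFB3 overlaps IFT43 on the opposite strand. BMP7 averaged under 1 CPM over the libraries.

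TGFB1, the most abundant ligand transcript in TPM, did not pass. It was at 166, 93.8 and 95.8 CPM in ALDH_High and 157, 160 and 148 CPM in ALDH_Low (log2 fold change -0.39, standard error 0.20, edgeR adjusted p 0.214). The value of ALDH_High library 1 lay above all ALDH_Low values while libraries 2 and 3 lay below them. Without ALDH_High library 1 the log2 fold change of TGFB1 was -0.70, and it passed (edgeR adjusted p 0.00103). TGFB1 overlaps HNRNPUL1 and CCDC97, genes on the opposite strand. TGFB1 made up 93.2% to 96.9% of the summed TPM of TGFB1, TGFB2 and TGFB3 in ALDH_High and 96.7% to 98.0% in ALDH_Low. The TGFB3 share was 3.93 ± 1.36% in ALDH_High and 1.19 ± 0.504% in ALDH_Low (SD, n = 3; exact permutation p = 0.1), with no overlap.

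The activin subunit gene INHBA was at 51.8, 63.8 and 51.9 CPM against 58.6, 53.2 and 44.6 CPM and did not pass (log2 fold change 0.10, standard error 0.14, edgeR adjusted p 0.682). It made up at least 98.0% of the summed TPM of INHBA, INHBB and INHBE in every library. GDF11, a ligand close to myostatin, was at 84.8, 53.4 and 48.3 against 46.8, 40.5 and 36.3 CPM and missed the threshold (log2 fold change 0.59, standard error 0.20, edgeR adjusted p 0.0669), although the groups did not overlap. GDF11 passed without ALDH_High library 3 (log2 fold change 0.76, edgeR adjusted p 0.0306), and it overlaps SARNP on the opposite strand. TGFB2, BMP2 and BMP4 had log2 fold changes of -0.38, -0.55 and -0.36 and adjusted p of 0.469, 0.185 and 0.396. Without ALDH_High library 1, BMP2 passed as lower (log2 fold change -0.86, edgeR adjusted p 0.0201). INHBB, INHBE, BMP5 and GDF6 had at most 11 counts in any library and were not tested.

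Among the 11 receptor genes, all of which were tested, 2 were higher and 1 lower (27.3%, against 20.6% of all genes). TGFBR2 (chromosome 3, 30606601 to 30694142), the type II receptor that binds TGF-beta, was at 62.0, 49.1 and 50.3 CPM in ALDH_High and 109, 88.3 and 71.5 CPM in ALDH_Low (log2 fold change -0.74, standard error 0.16, edgeR adjusted p 0.0101). The groups did not overlap, and ALDH_Low library 1 was the highest of all. Without ALDH_High library 2 TGFBR2 missed the threshold (log2 fold change -0.66, edgeR adjusted p 0.0532), and in the other 5 such fits it passed. Its partner TGFBR1, the type I receptor, was at 19.8, 25.2 and 32.6 against 23.7, 25.8 and 21.4 CPM, and the groups overlapped (edgeR adjusted p 0.672). TGFBR3 (betaglycan), a co-receptor that presents TGF-beta to TGFBR2 and binds inhibin, went up at a low level, with 6.11, 3.13 and 4.13 against 2.62, 2.01 and 1.44 CPM (log2 fold change 1.13, standard error 0.32, edgeR adjusted p 0.0326). Its adjusted p reached 0.120 without 1 library, and it missed the threshold in 4 of 6 such fits.

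ACVR1, a type I receptor that mainly transmits BMP signals, was at 28.4, 19.0 and 19.1 CPM in ALDH_High and 13.8, 14.1 and 10.9 CPM in ALDH_Low (log2 fold change 0.78, standard error 0.19, edgeR adjusted p 0.0163). Without ALDH_Low library 3 ACVR1 missed the threshold, at an adjusted p of 0.0742. ACVR1B, the type I receptor for activin, was at 25.6, 27.5 and 30.2 against 19.4, 24.1 and 17.3 CPM and missed it (log2 fold change 0.45, edgeR adjusted p 0.0605), with no overlap between the groups. ACVR1B passed without ALDH_High library 1 (adjusted p 0.0392) and without ALDH_Low library 2 (adjusted p 0.0347). Endoglin (ENG), a co-receptor for BMP9 and TGF-beta, was the most abundant receptor transcript in TPM, averaging 86.5 and 96.4 TPM. It was at 224, 171 and 160 CPM against 214, 226 and 194 CPM (log2 fold change -0.19, edgeR adjusted p 0.392). Without ALDH_High library 1, ENG passed as lower (log2 fold change -0.34, edgeR adjusted p 0.0412). BMPR1A, BMPR1B, BMPR2, ACVR2A and ACVR2B had log2 fold changes between -0.19 and 0.25 and adjusted p between 0.420 and 0.907. ACVR2A overlaps ORC4 on the opposite strand.

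SMAD genes gave 2 lower of 8 tested and 0 higher. That is 25% past the threshold, close to the 20.6% of all genes. SMAD7 (chromosome 18, 48919853 to 48950965), an inhibitory SMAD that is induced by the pathway and blocks its receptors, was at 7.14, 7.96 and 6.89 CPM in ALDH_High and 19.7, 21.0 and 17.6 CPM in ALDH_Low. The groups were tight and far apart (2.65-fold lower; log2 fold change -1.41, standard error 0.15, edgeR adjusted p 0.000143). SMAD6, the inhibitory SMAD of the BMP branch, was at 23.3, 32.5 and 34.1 against 38.6, 21.9 and 27.8 CPM with overlapping groups (edgeR adjusted p 0.950). SMAD2, a receptor-activated SMAD of TGF-beta and activin, was at 54.2, 63.8 and 61.7 against 88.4, 92.8 and 82.0 CPM (log2 fold change -0.55, standard error 0.11, edgeR adjusted p 0.00662). In limma fits of log2 TPM, SMAD2 missed the threshold, with limma adjusted p up to 0.103.

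SMAD2, SMAD4 and SMAD7 all lie on the long arm of chromosome 18, whose genes were lower as a whole. Over 121 tested genes of that chromosome beyond 20 Mb whose mean reached 5 CPM, the median difference was -0.44 on the log2 scale. The value of SMAD2 was close to that median and the value of SMAD7 well below it, while SMAD4 was at -0.10 (edgeR adjusted p 0.721). SMAD4, the common partner SMAD, was at 56.2, 46.2 and 55.6 against 55.8, 67.2 and 45.8 CPM. The part of the chromosome in the SMAD2 result was not tested. SMAD3 was at 90.2, 110 and 114 against 167, 137 and 113 CPM and did not pass (log2 fold change -0.41, standard error 0.16, edgeR adjusted p 0.0984), but passed without ALDH_Low library 3 (-0.54, edgeR adjusted p 0.0473). The BMP-branch SMADs SMAD1, SMAD5 and SMAD9 had adjusted p of 0.606, 0.124 and 0.350. SMAD9 lies on chromosome 13, whose genes were higher as a whole. Over 185 tested genes of chromosome 13 whose mean reached 5 CPM, the median was 0.37 on the log2 scale. SMAD9 was at 0.48, near that median, and the part of the chromosome was not tested.

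In SMAD6, the one member with a match to the palindrome GTCTAGAC (a motif bound by SMAD3 and SMAD4, searched on both strands), the letters stood at bases -12 to -5 from the start. The last 60 bases before that start (chr15:66702176-66702235, plus strand, GRCh38.p14) are shown with the palindrome in capitals.
SMAD6: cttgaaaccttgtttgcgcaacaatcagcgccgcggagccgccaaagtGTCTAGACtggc
This palindrome occurred in 0.256% of all genes with a window, and GGCGCC followed after 5 bases by GTCT occurred in 0 of 46 members and 0.125% of all genes.

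The ID genes encode helix-loop-helix proteins without a DNA-binding domain and are the best known direct targets of BMP signalling. ID3 (chromosome 1, 23557926 to 23559501) was at 52.1, 34.0 and 38.0 CPM in ALDH_High and 167, 129 and 164 CPM in ALDH_Low. It was 3.71-fold lower in ALDH_High (log2 fold change -1.89, standard error 0.18, edgeR adjusted p 5.92e-05), and the groups were far apart. ID1 (chromosome 20, 31605283 to 31606515) was at 77.0, 62.8 and 59.6 against 103, 85.0 and 106 CPM (log2 fold change -0.56, standard error 0.14, edgeR adjusted p 0.0160). The gap was small, and ID1 missed the threshold in 4 of 6 fits without 1 library, with adjusted p up to 0.0761. Genes of chromosome 20, where ID1, BMP2 and BMP7 lie, were higher as a whole, at a median of 0.28 (log2 scale) for 302 genes, so ID1 went against its chromosome.

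ID2 was at 7.38, 5.56 and 11.5 against 11.5, 11.3 and 11.5 CPM and did not pass (log2 fold change -0.49, edgeR adjusted p 0.204). ALDH_High library 3 lay at the ALDH_Low level, and without it ID2 passed as lower (log2 fold change -0.81, edgeR adjusted p 0.0279). ID4 was the rarest, with 42, 18 and 16 counts in ALDH_High and 8, 2 and 1 in ALDH_Low, and averaged under 1 CPM. It was higher in ALDH_High (log2 fold change 2.92, standard error 0.71, edgeR adjusted p 0.0162), with ALDH_High library 1 the highest, and missed the threshold in 2 of 6 fits without 1 library (ALDH_Low 2 or 3). Leaving out ALDH_High library 1 gave ID4 a log2 fold change of 2.14, and leaving out ALDH_Low library 1 gave 3.97. The summed TPM of the 4 ID genes was 209, 173 and 189 in ALDH_High and 446, 358 and 421 in ALDH_Low. ID3 made up 33.2 ± 2.36% of that sum in ALDH_High and 56.1 ± 1.03% in ALDH_Low (SD, n = 3; exact permutation p = 0.1). ID1 was therefore the leading ID transcript in every ALDH_High library, at 55.8% to 62.7%, and ID3 in every ALDH_Low library, at 55.0% to 57.0%.

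**Figure D3:**
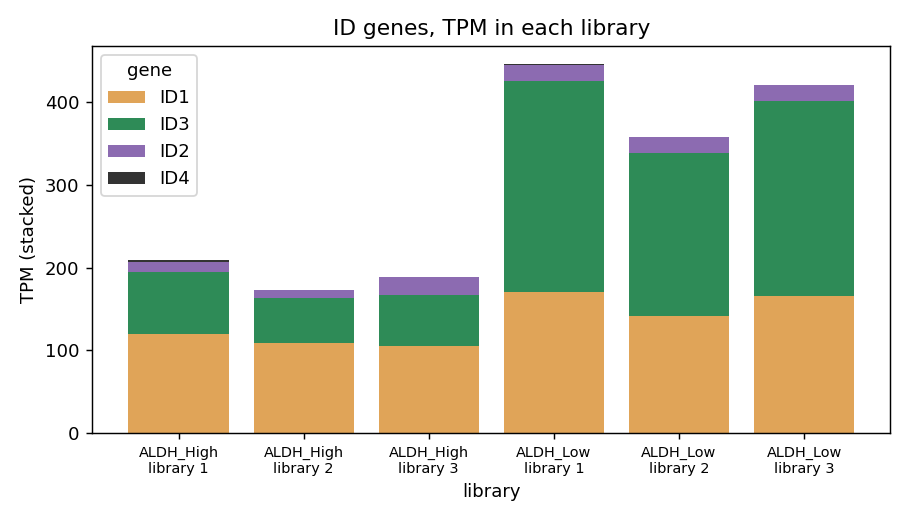
Stacked TPM of ID1, ID2, ID3 and ID4 in each of the 6 libraries, with the axis from 0. The summed height lies between 173 and 209 TPM in ALDH_High and between 358 and 446 TPM in ALDH_Low, and the ID3 part is larger than the ID1 part only in ALDH_Low.

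The promoters of ID1 and ID3 are shown because these genes fell together. Each is the 250 bases before the RefSeq start, 5′ to 3′, at chr20:31605039-31605288 (plus strand) and chr1:23559502-23559751 (minus strand) of GRCh38.p14. None of the 3 motifs was found in either window, so both are in lower case throughout; that says only that these letters are not in this stretch.
ID1: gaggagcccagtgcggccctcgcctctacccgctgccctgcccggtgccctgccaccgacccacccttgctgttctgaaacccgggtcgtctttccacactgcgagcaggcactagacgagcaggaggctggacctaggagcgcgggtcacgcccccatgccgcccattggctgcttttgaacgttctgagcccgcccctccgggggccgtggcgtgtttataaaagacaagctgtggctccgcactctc
ID3: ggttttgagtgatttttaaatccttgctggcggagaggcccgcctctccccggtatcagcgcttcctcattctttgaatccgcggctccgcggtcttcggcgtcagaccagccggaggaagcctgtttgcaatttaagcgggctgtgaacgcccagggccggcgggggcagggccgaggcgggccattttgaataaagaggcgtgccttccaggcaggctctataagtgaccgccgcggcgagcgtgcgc

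Latent TGF-beta binding proteins hold TGF-beta in an inactive complex in the matrix. LTBP2, which differs from the other family members in that it does not bind latent TGF-beta, was lower, at 12.7, 9.38 and 6.63 CPM in ALDH_High and 21.5, 22.7 and 15.4 CPM in ALDH_Low (log2 fold change -1.06, standard error 0.24, edgeR adjusted p 0.0112). LTBP1 was higher, at 5.68, 4.40 and 4.81 against 3.16, 3.01 and 2.84 CPM (log2 fold change 0.72, standard error 0.21, edgeR adjusted p 0.0380). The groups of LTBP1 did not overlap, but it missed the threshold in 6 of 6 fits without 1 library, with adjusted p up to 0.111. LTBP3, the most abundant of them in TPM, was at 243, 167 and 194 against 308, 232 and 260 CPM and did not pass (log2 fold change -0.41, standard error 0.16, edgeR adjusted p 0.101), but passed without ALDH_High library 1 (-0.55, edgeR adjusted p 0.0187). LTBP4 was at 62.5 to 71.3 against 61.5 to 70.0 CPM (adjusted p 0.888).

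The repressors SKI and SKIL, which bind SMAD complexes at DNA, and the ubiquitin ligases SMURF1 and SMURF2, which mark SMADs and receptors for degradation, gave no call. SMURF2, the most abundant of them in TPM, was at 59.8, 78.3 and 81.1 against 90.4, 89.0 and 83.0 CPM (log2 fold change -0.26, edgeR adjusted p 0.212). SKI, SKIL and SMURF1 had log2 fold changes of 0.16, 0.00103 and -0.09 and adjusted p of 0.390, 0.997 and 0.645. SMURF1 and SMURF2 overlap genes on the opposite strand.

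**Figure D4:**
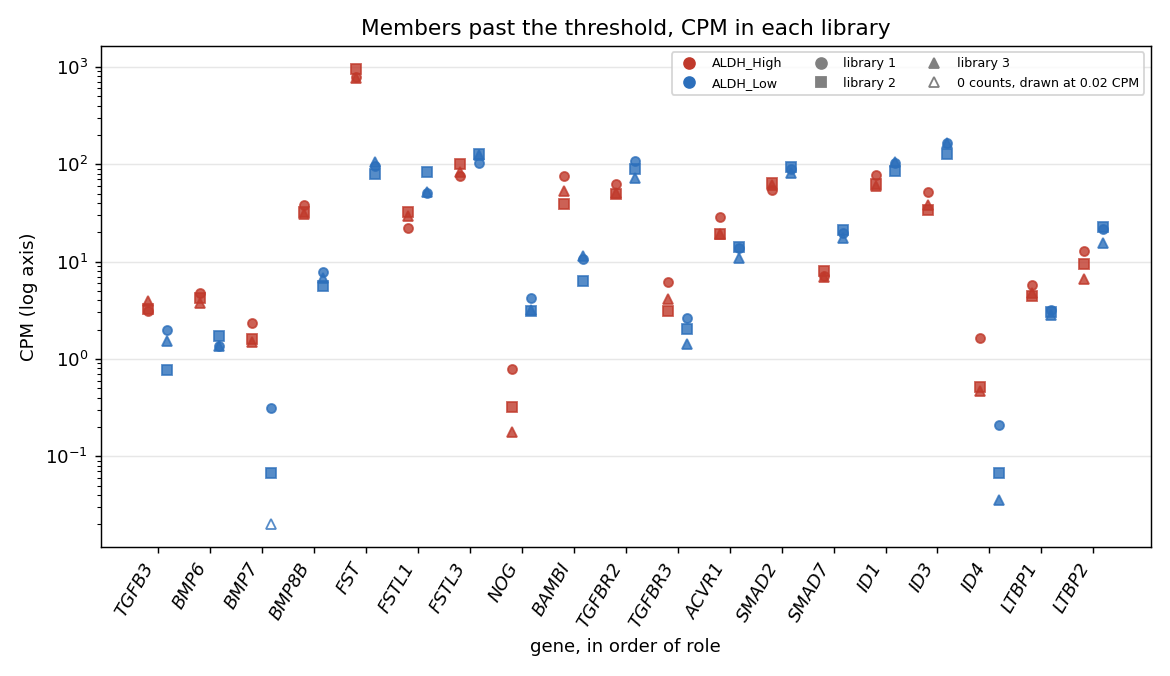
CPM on a log axis for the 19 members that passed the threshold, one point per library, red for ALDH_High and blue for ALDH_Low, with shapes giving the library number; an open symbol is a library with 0 counts, drawn at 0.02 CPM. The colours do not overlap for any of the 19 genes, and the levels run from below 1 CPM (some libraries of ID4, BMP7, NOG and TGFB3) to 957 CPM (FST).

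Besides the 53, a list of 64 other genes of the pathway was read in the same fit. Of 38 tested, 10 were higher, 4 lower and 24 did not pass, with a median log2 fold change of 0.19. That is 36.8% past the threshold, where 20.6% of all genes passed. CHRDL1, a chordin-like BMP antagonist, was at 47.2, 35.9 and 37.1 against 7.16, 5.75 and 7.98 CPM (log2 fold change 2.52, standard error 0.17, edgeR adjusted p 1.15e-05). ITGB8, the beta subunit of an integrin that activates latent TGF-beta, was at 72.1, 78.4 and 85.7 against 18.2, 13.2 and 11.5 CPM (2.45, standard error 0.17, edgeR adjusted p 1.35e-05). PMEPA1, which is induced by TGF-beta and restrains its SMADs, was at 105, 131 and 114 against 22.6, 30.6 and 33.3 CPM (2.02, standard error 0.16, edgeR adjusted p 2.54e-05) and lies on chromosome 20. All libraries of these 3 genes were higher in ALDH_High, as for FST and BAMBI, while SMAD7, also induced by the pathway, was lower.

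Lower genes of that list included NEDD4L, a ubiquitin ligase for activated SMAD2 and SMAD3, at 83.2, 107 and 105 against 223, 266 and 195 CPM (log2 fold change -1.21, standard error 0.15, edgeR adjusted p 0.000311). NEDD4L lies on the long arm of chromosome 18, with the median given above. NRROS, which tethers latent TGF-beta at the cell surface, was at 3.04, 2.52 and 2.87 against 7.63, 8.06 and 6.0 CPM (-1.37, standard error 0.21, edgeR adjusted p 0.00138).

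Genes commonly described as TGF-beta targets lay on both sides: of 22 tested in a list of 25, 5 were higher, 7 lower and 10 did not pass, with a median log2 fold change of -0.23. Those past the threshold were 54.5% of the tested targets, against 20.6% of all genes. Fibronectin (FN1) was at 251, 267 and 240 against 48.2, 37.4 and 47.9 CPM (log2 fold change 2.51, standard error 0.13, edgeR adjusted p 3.98e-06), and ADAM12 (2.54) and the collagen gene COL5A1 (0.88) were also higher. TGFBI, a matrix protein named for its induction by TGF-beta, was at 48.6, 52.2 and 51.5 against 198, 175 and 215 CPM (-1.95, standard error 0.12, edgeR adjusted p 5.95e-06). PTHLH (-1.69) was lower too. Of 7 genes tested in a list of 11 BMP targets other than the ID genes, MSX1 (-1.17), RUNX2 (-2.03) and ATOH8 (-1.33) were lower and HEY2 (1.27) higher, each by log2 fold change. They made up 57.1% of those tested, against 20.6% of all genes. ATOH8 and HEY2 had adjusted p of 0.0273 and 0.0484 and missed the threshold in several other fits, with adjusted p up to 0.168 and 0.161.

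**Figure D5:**
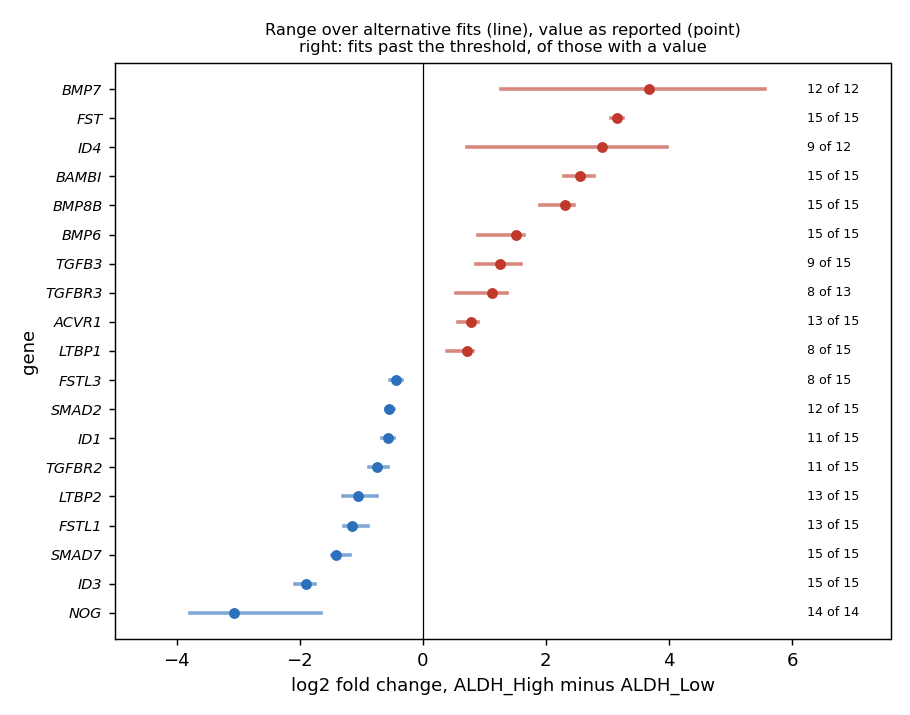
Log2 fold change (ALDH_High minus ALDH_Low) of the 19 members that passed: the point is the value as reported, the line spans the alternative fits, and the numbers at the right give how many alternative fits passed the threshold of those with a value. No line crosses 0, and 8 genes (BMP6, BMP7, BMP8B, FST, NOG, BAMBI, SMAD7 and ID3) passed in every alternative with a value. BMP7 had a value in 12 alternatives and NOG in 14, where FST had 15. Neither BMP7 nor NOG had a value with at least 10 counts required in every library, so that fit says nothing about them.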

How the data were processed

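RNA sequencing of 6 libraries was used, 3 per group. The libraries were TruSeq stranded mRNA, per the labels' protocols. The submitters' processing notes name FastQC 0.11.3, STAR 2.5.1b, HTSeq 0.6.1, DESeq2 and the build GRCh38, with no role or order; the annotation release is not given in the sources used here. The authors deposited counts that read as rounded estimated counts, since 133 to 177 genes per library had a count of 0 beside a TPM above 0. The deposited TPM values have the same sum in every library; the gene lengths behind them are not given.

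Counts were filtered with filterByExpr, scaled by TMM and compared between ALDH_High and ALDH_Low in edgeR 4.0.16 (glmQLFit, glmQLFTest, two-sided) with no replicate term. P-values were adjusted by Benjamini-Hochberg across the 17047 genes, with a threshold of 0.05. The fixed design took the counts as deposited. The standard error of a log2 fold change is that value over the root of its F statistic. CPM use TMM-scaled library sizes, except for cell type markers, which use total counts. The 261 rows without a gene name (at most 0.0267% of counts) stayed in. Scripts were tested on simulated data. Positions come from GENCODE 44 on GRCh38, promoters from RefSeq on GRCh38.p14. Chi-square per degree of freedom was 12.1 to 50.1 within groups, so no library was treated as deposited again. The reads carry no molecular identifiers.

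Members and gene lists were chosen with earlier results of these data known. Named genes are all members, in full those past the threshold with a mean of at least 1 CPM and the most abundant of a role, and of each other list the 3 higher and 3 lower genes of smallest p past the threshold at that level. Alternatives were other scalings and filters in edgeR, a replicate block, DESeq2 1.42.0, limma 3.58.1 on log2(TPM + 1) and log2(TPM + 0.1), stricter thresholds and each library left out. Details on some genes are not reported here.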

Additional observations from a re-analysis of the deposited data

How the results depend on the processing

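The number of members past the threshold was 19 in the reported fit and 13 to 21 in the fits that left out 1 library, 13 of them without ALDH_Low library 3, where 5 were higher; over these fits the higher members numbered 5 to 9 and the lower 7 to 12. It fell to 10 (6 higher, 4 lower) in limma on log2(TPM + 0.1), and also on log2(TPM + 1) with no filter. FSTL1, FSTL3, LTBP2, SMAD2, TGFB3 and TGFBR2 missed the threshold in both of these limma fits. At an adjusted p below 0.01 the number of members was 10 (5 higher, 5 lower). With a difference of 1 or more on the log2 scale required beside the threshold of 0.05, 13 members were left, 5 of them lower. The cause in limma was not tested; the other limits are stricter by construction. Outside chromosomes 13, 18 and 20, 15 members were left, 9 higher and 6 lower. All genes past the threshold fell from 3513 to 2170 in limma on log2(TPM + 0.1), to 1930 at an adjusted p below 0.01 and to 1958 with the fold limit. Other pathway genes fell to 8 in limma on log2(TPM + 0.1), TGF-beta targets to 7 in limma on log2(TPM + 1) without a filter, and BMP targets to 2 in all 3 limma fits, at an adjusted p below 0.01, and without ALDH_High library 3, ALDH_Low library 1 or ALDH_Low library 3 (range 2 to 4). Upper-quartile scaling moved the share of higher genes among all calls to 46.0% from 52.3%, with the same 19 members past the threshold.

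With the replicate number as a block, 21 members passed, among them all 19, with GDF11 and LTBP3 added; all genes numbered 3748. Libraries of equal number deviated together with correlations of 0.150, 0.0760 and 0.108, each the highest for its number, a hint from the data. The numbers were not taken as pairs because the labels do not say that a number marks a shared culture or day.

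No member past the threshold changed sign in any alternative. Among the 28 members not past it, sign changes were seen for 10 (reported values from -0.19 to 0.13). In the fits that left out 1 library, log2 fold changes ran from -0.0030 to 0.20 for INHBA, -0.15 to 0.016 for BMP1, -0.056 to 0.31 for TGFBR1, -0.40 to 0.11 for BMPR1B, -0.060 to 0.18 for BMPR2, -0.13 to 0.10 for ACVR2B, -0.22 to 0.050 for SMAD4, -0.15 to 0.29 for SMAD6, -0.0064 to 0.098 for LTBP4 and -0.075 to 0.12 for SKIL. Under upper-quartile scaling SMAD6 was at -0.022, LTBP4 at -0.019 and SKIL at -0.047; SKIL was at -0.0044 with the block, and ACVR2B at 0.0010 in the 3 limma fits.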
